A study of Mus musculus with 6 samples.

Results

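Transforming growth factor beta (TGF-beta), activin and bone morphogenetic protein (BMP) signalling was examined through 31 genes in satellite cells, the resident stem cells of skeletal muscle. The genes were taken from a list of ligands, extracellular regulators, receptors, Smad proteins, co-repressors, ubiquitin ligases and Id target genes. They are 31 of the 54123 genes to which the transcript quantities could be summed. Each of the 31 passed the filter for low counts, among 17084 genes tested.

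In this pathway a dimeric ligand brings together type I and type II receptor kinases, which phosphorylate receptor Smads. TGF-beta and activin act through Smad2 and Smad3, BMPs through Smad1 and Smad5, and both kinds join Smad4 to enter the nucleus. Smad6 and Smad7 act as feedback inhibitors of the pathway. In muscle the pathway is known for holding satellite cells back from differentiation, and BMP signalling raises the Id genes, whose proteins bind the partners of MyoD and keep them from activating muscle genes.

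Total RNA came from satellite cells of adult C57BL/6 mice, sorted by fluorescence 30 h after cardiotoxin, which kills muscle fibres and so starts regeneration, had been injected into the tibialis anterior and gastrocnemius. There were 6 libraries, 2 of each genotype. Jmjd3 KO cells were knocked out for JMJD3 (gene Kdm6b) and Utx KO cells for UTX (gene Kdm6a), both of them demethylases of a repressive mark on histone H3, and Tdt Control cells, called wild type in the title of the series, were set against them. The Cre driver, the alleles, the sex of the animals and what Tdt stands for are not given in the sources used here, nor is the number of animals in a library. Nothing says that the 2 replicates of a genotype came from separate animals, so p-values measure only the spread between these samples.

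The libraries held 53750675 to 77675388 estimated reads. Kdm6a stood at 7.68 and 7.38 CPM (read counts scaled to the normalised library size) in Utx KO, against 32.9 and 34.0 CPM in Tdt Control. Kdm6b stood at 15.9 and 16.5 CPM in Jmjd3 KO, against 29.9 and 22.7 CPM in Tdt Control, so its transcripts remained at over 15 CPM in the knockout. Pax7, which defines satellite cells, was at 134 to 148 CPM in the 6 libraries and was not called. Of the 9 satellite cell markers 2 were higher and 1 lower in each knockout against Tdt Control. Myod1, the gene of MyoD, was lower in both, with 400 and 410 CPM in Jmjd3 KO, 407 and 403 CPM in Utx KO, and 469 and 473 CPM in Tdt Control (adjusted p = 0.0336 in Jmjd3 KO and 0.0461 in Utx KO). Fgfr4 was higher in both knockouts, Des in Jmjd3 KO and Myf5 in Utx KO. Other cells or their RNA were present too. The summed level of 8 mature fibre markers was 6318 and 6560 CPM in Jmjd3 KO, 4478 and 5221 CPM in Utx KO, and 4884 and 5047 CPM in Tdt Control. Against Tdt Control 2 of these, Myh4 and Atp2a1, were called higher in Jmjd3 KO, and 1, Tnnt3, lower in Utx KO. For 8 neutrophil markers the sum was 213.5 and 163.2 CPM in Jmjd3 KO, 143.3 and 171.9 CPM in Utx KO, and 104.3 and 113.9 CPM in Tdt Control, with Ly6g below 0.1 CPM throughout. Of the 7 tested, 3 were called higher in Jmjd3 KO than in Tdt Control (S100a9, Csf3r and Hdc) and 1 in Utx KO (Hdc). The 10 markers of fibro-adipogenic progenitors summed to 529 to 607 CPM. Most of this was Cd34 (250 to 304 CPM) and Gsn (172 to 227 CPM). Whether Cd34 and Gsn came from satellite cells or other cells cannot be told in bulk, so this sum does not measure other cells. The rest of these markers lay between 0.279 CPM (Dpp4) and 24.0 CPM (Col15a1), with Pdgfra at 16.3 to 22.0 CPM. The 8 endothelial cell markers summed to 45.6 to 70.0 CPM. The 8 macrophage markers summed to 49.3 to 79.2 CPM, with Cx3cr1 between 0.149 and 0.516 CPM. Against Tdt Control Fcgr1 was called lower in Utx KO, and no fibro-adipogenic or endothelial marker was called in either knockout. The part of these cells in the differences below was not tested.

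The promoters of 5 members are shown because 3 of them belong to genes that differed between genotypes and 2 to the relatives of Id1, which were set beside it. They come from RefSeq on GRCm38.p6 and run from 250 bases before to 50 bases after the start of transcription: Bmp4 at chr14:46390620-46390919 (minus strand), Smad3 at chr9:63757945-63758244 (minus), Smurf2 at chr11:106920666-106920965 (minus), Id2 at chr12:25096043-25096342 (minus) and Id3 at chr4:136143572-136143871 (plus). Capitals mark CAGAC, the element that Smad3 and Smad4 bind, or its reverse complement GTCTG, and the GC-rich element GGCGCC, which reads the same on both strands and is bound by BMP Smads.
Bmp4: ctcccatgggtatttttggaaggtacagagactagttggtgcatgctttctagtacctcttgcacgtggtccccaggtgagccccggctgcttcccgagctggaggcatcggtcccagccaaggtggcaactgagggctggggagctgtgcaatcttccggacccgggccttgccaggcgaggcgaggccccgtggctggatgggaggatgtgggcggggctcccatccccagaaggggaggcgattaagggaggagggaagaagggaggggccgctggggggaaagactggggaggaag
Smad3: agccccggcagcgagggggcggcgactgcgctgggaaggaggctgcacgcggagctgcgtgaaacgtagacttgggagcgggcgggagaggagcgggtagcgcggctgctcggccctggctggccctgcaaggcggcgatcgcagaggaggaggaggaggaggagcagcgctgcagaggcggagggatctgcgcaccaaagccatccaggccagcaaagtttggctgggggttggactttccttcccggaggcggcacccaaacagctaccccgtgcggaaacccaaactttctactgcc
Smurf2: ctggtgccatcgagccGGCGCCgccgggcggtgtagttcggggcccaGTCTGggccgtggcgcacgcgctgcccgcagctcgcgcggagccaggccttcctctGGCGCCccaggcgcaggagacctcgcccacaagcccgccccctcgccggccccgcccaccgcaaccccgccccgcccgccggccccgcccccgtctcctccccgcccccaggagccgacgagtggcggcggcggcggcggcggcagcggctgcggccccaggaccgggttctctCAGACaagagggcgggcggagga
Id2: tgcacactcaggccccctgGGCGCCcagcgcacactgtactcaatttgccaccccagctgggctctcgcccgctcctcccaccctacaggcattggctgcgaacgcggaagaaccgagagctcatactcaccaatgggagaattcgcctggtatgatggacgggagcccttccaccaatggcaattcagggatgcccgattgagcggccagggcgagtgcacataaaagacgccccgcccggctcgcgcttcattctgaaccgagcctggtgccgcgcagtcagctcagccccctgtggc
Id3: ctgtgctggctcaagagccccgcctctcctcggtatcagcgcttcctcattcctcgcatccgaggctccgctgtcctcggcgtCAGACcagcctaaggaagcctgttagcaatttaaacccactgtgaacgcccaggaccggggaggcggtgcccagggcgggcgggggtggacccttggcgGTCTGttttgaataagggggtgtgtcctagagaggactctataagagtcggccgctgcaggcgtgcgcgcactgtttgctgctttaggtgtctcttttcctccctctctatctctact

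Neither element was in the Bmp4 or Smad3 window. Smurf2 held 2 matches of each, with CAGAC at -203 and 28 and GGCGCC at -234 and -147, counted from the start to the first base of the match. Id2 held 1 GGCGCC at -231 and Id3 held 2 CAGAC at -167 and -68. The table had promoters for 21 of the 31 members, 25 promoters in all. It had none for Id1, Tgfb3 and Bmp1, which also differed between genotypes, so no window of these genes is shown. CAGAC was in 11 of these 25, and 49.6% of the 32851 promoters in the table held it. GGCGCC was in 8 of the 25, and 11.9% of all promoters held it. Overlapping Smad5 windows share a GGCGCC site that is counted in each, and by gene it was in 7 of the 21 members. These shares were not tested. They were also not matched for G and C content, which ran from 47.7% to 85.3% in the member windows. The 2 motifs share no overlapping match in the windows shown.

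Levels per transcript length, in TPM (transcript abundance scaled to a fixed sum per library), showed which members these cells carried. The 3 Id genes led the list. Id1 averaged 118 ± 1.1 TPM in Jmjd3 KO, 108 ± 4.58 TPM in Utx KO and 148.5 ± 0.734 TPM in Tdt Control (SD, n = 2 each). Id2 and Id3 followed with means over the 6 libraries of 64.95 and 58.7 TPM. Id2 was above Id3 in each of the 6 libraries, by the least in Jmjd3 KO replicate 2 (60.3 and 60.2 TPM), while their ranges over the libraries overlapped. In CPM, which is not scaled to length, Id3 was above Id2 in every knockout library and below it in both control libraries. The order of these genes therefore depends on the scaling to length. Ltbp1, which stores latent TGF-beta in the matrix, came next at 35.5 TPM, and Smad2 was the most abundant Smad at 24.1 TPM, with a range of 23.2 to 25.5 TPM.

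Among the 6 ligands Bmp4 was the most abundant, with a mean of 9.89 TPM, followed by Tgfb2 with 5.29 TPM and Tgfb3 with 3.91 TPM. Tgfb1 at 2.53 TPM and Bmp2 at 2.41 TPM lay lower, with overlapping ranges. Inhba, the activin A subunit, was the lowest of all 31 members at 0.459 TPM. Its antagonist follistatin (Fst) was at 1.282 TPM and the activin receptor Acvr2b at 1.06 TPM. In each of the 6 libraries Bmpr1a had more transcripts per length than any other receptor of the list, with a mean of 22.8 TPM.

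**Figure D1:**
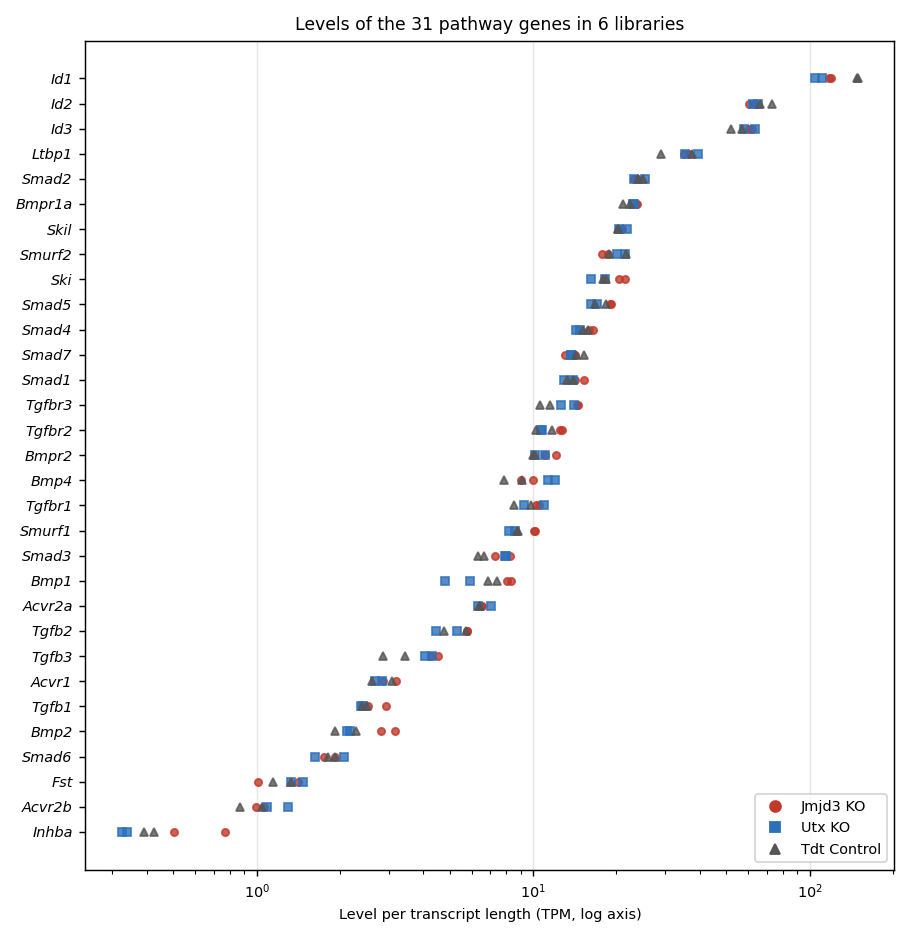
Level of each of the 31 genes in every library, in TPM on a log axis, with circles for Jmjd3 KO, squares for Utx KO and triangles for Tdt Control. The 3 Id genes lie at the top, and Inhba, Acvr2b and Fst at the bottom. The genotypes lie close together for most members, and the Tdt Control triangles of Id1, near 149 TPM, stand above the knockouts.

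Genes were compared between genotypes on read counts with edgeR's quasi-likelihood test, fitted across all genes. A gene was called at a Benjamini-Hochberg adjusted p under 0.05. In bulk cells a lower value cannot be told apart from fewer cells of a type. In Jmjd3 KO against Tdt Control 1 member rose (Tgfb3) and 1 fell (Id1), or 6.45% of the members, against 3.0% of all genes tested (1.97% higher and 1.03% lower). In Utx KO against Tdt Control 2 rose (Bmp4 and Smad3) and 1 fell (Id1), or 9.68%, against 1.72% of all genes (0.790% higher and 0.925% lower). In Jmjd3 KO against Utx KO 1 was higher (Bmp1) and 1 lower (Smurf2), or 6.45%, against 8.02% of all genes (5.13% higher and 2.89% lower). Counts of 2 or 3 genes are too small to be read as a property of the list.

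No member reached a 1.5-fold difference in any of these 3 comparisons. Log2 fold changes of the members ran from -0.41 to 0.49 in Jmjd3 KO, from -0.48 to 0.40 in Utx KO and from -0.34 to 0.58 between the knockouts. Their median sizes without sign were 0.12, 0.11 and 0.15, beside 0.13, 0.12 and 0.15 over all genes tested. The signed medians were 0.03 in Jmjd3 KO, -0.00 in Utx KO and -0.01 between the knockouts, and 0.00 in size over all genes in each comparison. At an unadjusted p under 0.05 there were 12, 7 and 12 of the 31 members, beside 20.0%, 16.2% and 25.6% of all genes tested. With 2 libraries a group, groups of values did not overlap for 21 members in Jmjd3 KO, 16 in Utx KO and 21 between the knockouts. Over all genes this held for 51.8%, 45.6% and 57.2%, so separation alone says little here.

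**Figure D2:**
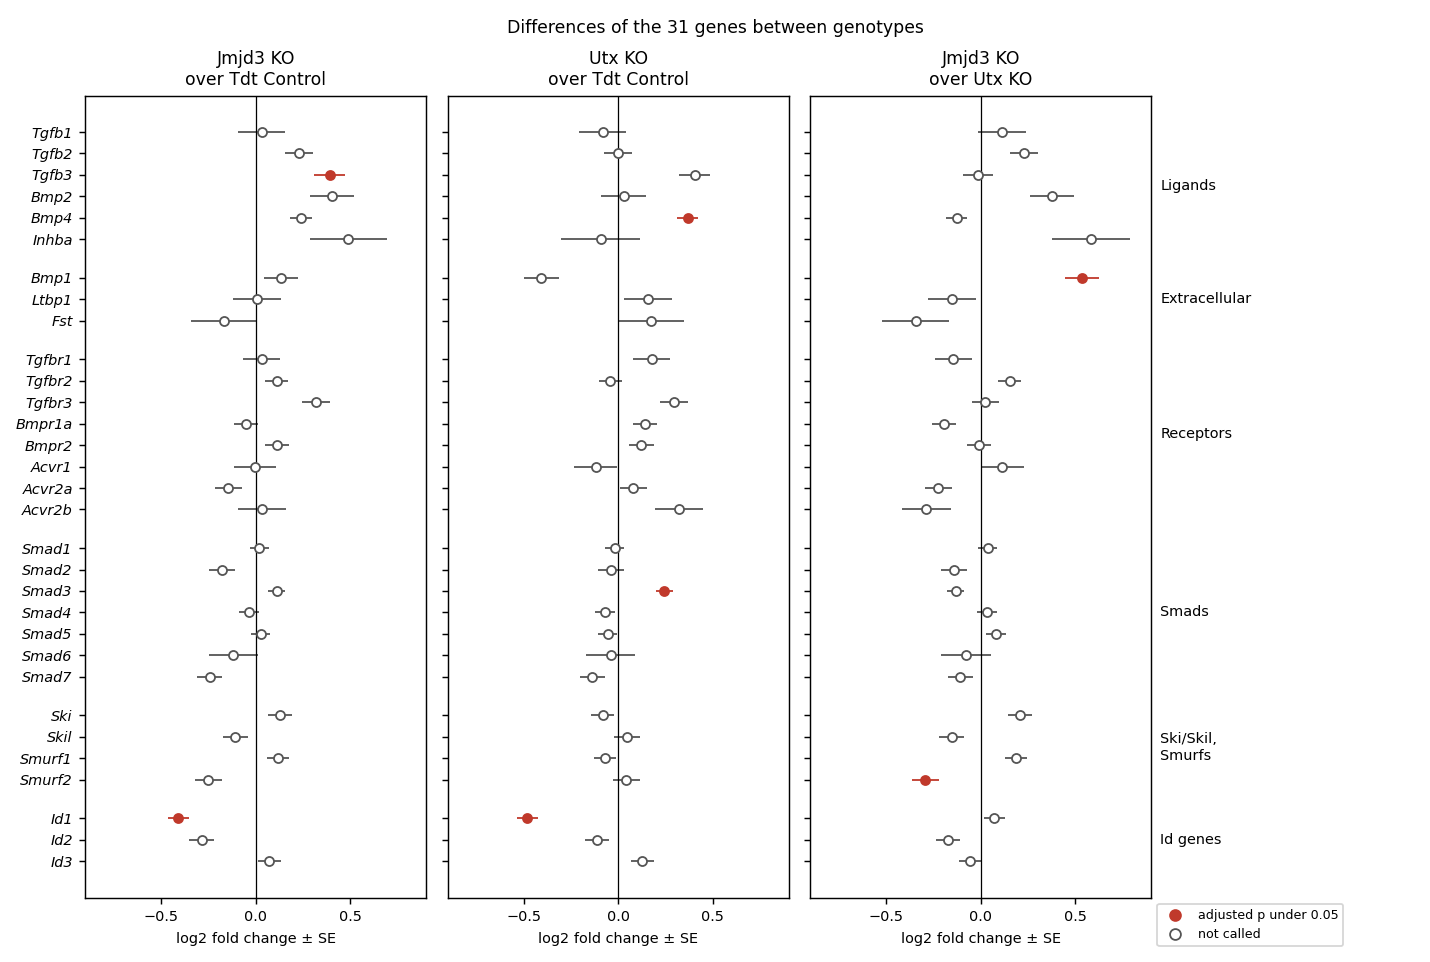
Log2 fold change of the 31 genes by role in Jmjd3 KO over Tdt Control, Utx KO over Tdt Control and Jmjd3 KO over Utx KO. Lines are the SE, and filled points have an adjusted p under 0.05. Id1 lies near -0.41 and -0.48 in the 2 comparisons with the control, which share its libraries, and near 0.07 between the knockouts.

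Id1 was lower in both knockouts. The gene (ENSMUSG00000042745.9, chromosome 2, 152736251 to 152737410 on GRCm38) encodes a BMP-responsive inhibitor of MyoD-type factors. It had 115.9 and 113.2 CPM in Jmjd3 KO, 110.2 and 107.7 CPM in Utx KO, and 156.8 and 147.5 CPM in Tdt Control. Both knockouts lay below both control libraries, and nearly all of its TPM (98.7% to 99.4%) was in 1 protein-coding transcript. The log2 fold change was -0.41 ± 0.06 in Jmjd3 KO (SE, adjusted p = 0.0122), a level 1.33-fold lower, and -0.48 ± 0.06 in Utx KO (adjusted p = 0.0152), or 1.40-fold lower. The knockouts did not pass the test against each other (0.07 ± 0.06, adjusted p = 0.461). These comparisons share the 2 control libraries. Leaving out 1 library ended the Jmjd3 KO call without Jmjd3 KO replicate 1 (adjusted p = 0.100), Jmjd3 KO replicate 2 (0.0786) or Tdt Control replicate 1 (0.0647). It ended the Utx KO call without Utx KO replicate 1 (0.109), Utx KO replicate 2 (0.0650) or Tdt Control replicate 1 (0.0685).

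Id2 and Id3, which encode close relatives of the Id1 protein, were not called in any of the 3 comparisons. They were added to the genes described after their values had been seen. Id2 had 69.5 and 66.0 CPM in Jmjd3 KO, 78.3 and 74.5 CPM in Utx KO, and 79.6 and 85.7 CPM in Tdt Control. Both knockouts were again below the control libraries, with -0.29 ± 0.06 (adjusted p = 0.0609) in Jmjd3 KO and -0.11 ± 0.06 (adjusted p = 0.436) in Utx KO. DESeq2 (adjusted p = 0.00193) and the filter of 5 CPM (0.0471) called it in Jmjd3 KO. Id3 had 82.2 and 77.8 CPM in Jmjd3 KO, 84.8 and 81.5 CPM in Utx KO, and 74.7 and 77.6 CPM in Tdt Control. Here the knockouts lay above the controls, by 0.07 ± 0.06 (adjusted p = 0.555) and 0.13 ± 0.06 (adjusted p = 0.350). As printed above, the Id2 window holds GGCGCC and the Id3 window CAGAC, while no Id1 window was available.

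Among the ligands, Tgfb3 passed the test in Jmjd3 KO. It encodes TGF-beta 3 (ENSMUSG00000021253.7, chromosome 12, 86056745 to 86079041). Its values were 22.7 and 21.03 CPM in Jmjd3 KO, 21.2 and 22.9 CPM in Utx KO, and 15.6 and 17.7 CPM in Tdt Control. Both knockouts lay above both controls. It rose by 0.39 ± 0.08 in Jmjd3 KO (adjusted p = 0.0494). In Utx KO the difference was 0.40 ± 0.08 (adjusted p = 0.0590), which misses the threshold, and between the knockouts it was -0.01 ± 0.08 (adjusted p = 0.940). Leaving out any 1 library ended the Jmjd3 KO call, with an adjusted p between 0.0593 and 0.266, and so did transcript length offsets (0.0907).

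Bmp4 passed in Utx KO. It encodes BMP4 (ENSMUSG00000021835.15, chromosome 14, 46383520 to 46390669) and had 26.1 and 26.4 CPM in Jmjd3 KO, 29.6 and 27.9 CPM in Utx KO, and 21.6 and 22.95 CPM in Tdt Control. The Utx KO libraries were the highest and the controls the lowest. It rose by 0.37 ± 0.06 in Utx KO (adjusted p = 0.0288), and in Jmjd3 KO the difference was 0.24 ± 0.06 (adjusted p = 0.0697). Any 1 library left out ended the call (adjusted p between 0.0650 and 0.166), as did length offsets (0.0645). Offsets for transcript length moved the Jmjd3 KO value to 0.08 (adjusted p = 0.692). A short retained-intron transcript of 258 bases took 0% to 20.9% of the gene's TPM, with 9.55% and 0% in Jmjd3 KO, 18.2% and 20.9% in Utx KO, and 13.4% and 17.6% in Tdt Control.

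The 4 other ligands were not called. Bmp2 had 10.3 and 11.3 CPM in Jmjd3 KO, 8.13 and 8.55 CPM in Utx KO, and 9.07 and 7.27 CPM in Tdt Control. The Jmjd3 KO libraries were the highest, by 0.40 ± 0.12 over Tdt Control (adjusted p = 0.111) and by 0.38 ± 0.12 over Utx KO (adjusted p = 0.0964). Inhba had 3.92 and 2.74 CPM in Jmjd3 KO, 2.27 and 2.18 CPM in Utx KO, and 2.62 and 2.11 CPM in Tdt Control. Jmjd3 KO replicate 1 stood apart, and the differences were 0.49 ± 0.20 over Tdt Control (adjusted p = 0.231) and 0.58 ± 0.21 over Utx KO (adjusted p = 0.130). Tgfb2 in Jmjd3 KO was 0.23 ± 0.07 over Tdt Control (adjusted p = 0.147). Tgfb1 had overlapping groups in each comparison. All 6 ligands had positive log2 fold changes in Jmjd3 KO, with a median of 0.31, and in Utx KO 3 were positive and 3 negative, with a median of 0.01.

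**Figure D3:**
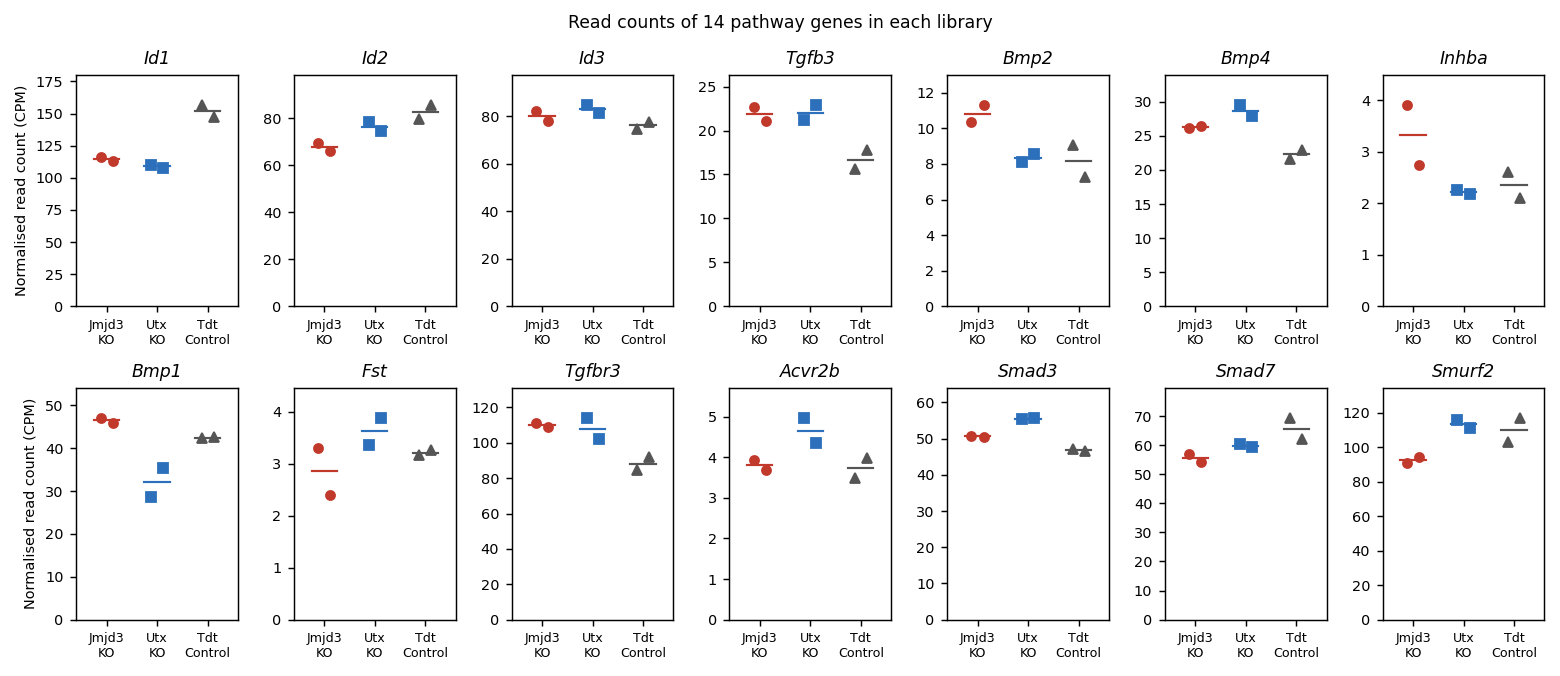
Normalised read counts (CPM) of 14 genes in each library, Jmjd3 KO left, Utx KO in the middle and Tdt Control right, with a line at the mean of the 2 libraries and axes that start at 0. Id1 stands above 147 CPM in the controls and below 116 CPM in both knockouts, and Bmp1 is lowest in Utx KO, at 28.6 and 35.4 CPM.

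Bmp1 was the extracellular member that differed between the knockouts. Despite its name it encodes a metalloprotease that trims procollagens and frees BMPs from chordin (ENSMUSG00000022098.10, chromosome 14, 70474558 to 70520234). Its values were 47.02 and 45.9 CPM in Jmjd3 KO, 28.6 and 35.4 CPM in Utx KO, and 42.3 and 42.5 CPM in Tdt Control. The 3 genotypes did not overlap, and the Utx KO replicates lay furthest apart. It was 0.54 ± 0.09 higher in Jmjd3 KO than in Utx KO (adjusted p = 0.0148), a level 1.45-fold higher. This call was lost without Jmjd3 KO replicate 1 (adjusted p = 0.0895) or replicate 2 (0.0769). Against Tdt Control the values were 0.13 ± 0.09 in Jmjd3 KO (adjusted p = 0.457) and -0.41 ± 0.09 in Utx KO (adjusted p = 0.0826). In Utx KO against Tdt Control it was called with DESeq2 (adjusted p = 0.00368) and without Utx KO replicate 2 (0.0449). The summed fibro-adipogenic markers were 607 and 586 CPM in Jmjd3 KO and 533 and 540 CPM in Utx KO. Most of this came from Cd34 and Gsn, whose cells of origin cannot be told in bulk. Of the 10 marker genes 2 were called higher in Jmjd3 KO. They were Cd34 (303.5 and 301.2 CPM, against 265.6 and 249.7 CPM in Utx KO) and Lum (10.8 and 9.24 CPM, against 6.45 and 5.83 CPM). Pdgfra, at 21.4 and 19.0 CPM in Jmjd3 KO and 16.3 and 17.95 CPM in Utx KO, was not called. The part of these markers in the Bmp1 difference was not tested.

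The other extracellular members, Ltbp1 and Fst, were not called. Follistatin binds and blocks activin and myostatin. Fst had 3.31 and 2.40 CPM in Jmjd3 KO, 3.37 and 3.88 CPM in Utx KO, and 3.16 and 3.26 CPM in Tdt Control. Jmjd3 KO replicate 2 was the lowest library, and the difference between the knockouts was -0.34 ± 0.17 (adjusted p = 0.265). Ltbp1 had 221 to 307 CPM, with the 2 extremes in Tdt Control replicate 2 and Utx KO replicate 2. A transcript of 5140 bases took 56.0% of its TPM, one of 4870 bases 32.8% and the long form of 6671 bases 8.55%.

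None of the 8 receptors passed the test in the 3 comparisons with edgeR and its own filter for low counts, where 1, 2 and 3 of them had an unadjusted p under 0.05. DESeq2 called Tgfbr3 in both knockouts against Tdt Control and Bmpr1a between the knockouts. With no filter edgeR called far more of all genes, so its adjusted p-values there cannot be set beside those of the filtered test. With other filters edgeR called Tgfbr3 in Jmjd3 KO at 5 CPM or more (adjusted p = 0.0471), and in both knockouts with no filter (6.6e-05 in Jmjd3 KO and 0.000589 in Utx KO). It called Acvr2a between the knockouts with no filter and without Utx KO replicate 2. Tgfbr3 encodes betaglycan, the co-receptor that presents TGF-beta to its receptors. It had 111 and 109 CPM in Jmjd3 KO, 114 and 102 CPM in Utx KO, and 84.4 and 91.9 CPM in Tdt Control. Both knockouts stood above both controls. The differences were 0.32 ± 0.07 in Jmjd3 KO (adjusted p = 0.0628 with edgeR, 0.00120 with DESeq2) and 0.29 ± 0.07 in Utx KO (adjusted p = 0.106 with edgeR, 0.00475 with DESeq2). Acvr2b, a type II activin receptor, had 3.95 and 3.69 CPM in Jmjd3 KO, 4.97 and 4.35 CPM in Utx KO, and 3.49 and 3.98 CPM in Tdt Control. Utx KO was the highest, by 0.32 ± 0.13 over Tdt Control (adjusted p = 0.274). The remaining 6 receptors, Tgfbr1, Tgfbr2, Bmpr1a, Bmpr2, Acvr1 and Acvr2a, lay between -0.22 and 0.18 in the 3 comparisons.

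Smad3, a receptor Smad of TGF-beta and activin, was the one Smad called. The gene (ENSMUSG00000032402.12, chromosome 9, 63646767 to 63757994) had 50.8 and 50.5 CPM in Jmjd3 KO, 55.4 and 55.7 CPM in Utx KO, and 47.2 and 46.6 CPM in Tdt Control. Replicates lay within 1 CPM of each other and the genotypes did not overlap. Smad3 rose by 0.24 ± 0.04 in Utx KO (adjusted p = 0.0467), a level 1.18-fold higher, and in Jmjd3 KO the difference was 0.11 ± 0.04 (adjusted p = 0.227). Between the knockouts it was -0.13 ± 0.04 (adjusted p = 0.118), so a difference between their effects was not shown. Leaving out any 1 library ended the Utx KO call (adjusted p between 0.115 and 0.218), as did length offsets (0.131).

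Smad7, the inhibitor of TGF-beta receptors, was added to the genes described after its values had been seen. It had 56.9 and 54.1 CPM in Jmjd3 KO, 60.3 and 59.3 CPM in Utx KO, and 69.3 and 62.1 CPM in Tdt Control. Both knockouts lay below both controls, by -0.24 ± 0.07 in Jmjd3 KO (adjusted p = 0.0939 with edgeR, 0.0285 with DESeq2) and -0.14 ± 0.07 in Utx KO (adjusted p = 0.362). The other 5 Smads, namely Smad1, Smad2, Smad4, Smad5 and Smad6, had log2 fold changes between -0.18 and 0.08. Smad1 had 47.1 to 50.5 CPM, Smad4 49.7 to 54.6 CPM and Smad5 103 to 110 CPM, and for these 3 genes the largest difference in size was 0.08. Smad2 moved more, with 69.7 and 70.6 CPM in Jmjd3 KO, 81.0 and 73.7 CPM in Utx KO, and 76.4 and 82.6 CPM in Tdt Control. Its log2 fold change was -0.18 ± 0.07 in Jmjd3 KO (adjusted p = 0.204) and -0.14 ± 0.07 between the knockouts (adjusted p = 0.247).

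Of the nuclear co-repressors Ski and Skil and the ubiquitin ligases Smurf1 and Smurf2, Smurf2 was called. It marks Smads and receptors for degradation (ENSMUSG00000018363.16, chromosome 11, 106820066 to 106920715). Kdm6b lies far from it on the same chromosome, at 69398508 to 69413675. Smurf2 had 90.6 and 94.3 CPM in Jmjd3 KO, 116 and 111 CPM in Utx KO, and 103 and 117 CPM in Tdt Control. The Jmjd3 KO libraries were the lowest of the 6, and Utx KO overlapped Tdt Control. It was 0.29 ± 0.07 lower in Jmjd3 KO than in Utx KO (log2 fold change -0.29, adjusted p = 0.0493), with -0.25 ± 0.07 against Tdt Control (adjusted p = 0.111 with edgeR, 0.0193 with DESeq2). The call between the knockouts was lost without any 1 of the 4 knockout libraries (adjusted p from 0.116 to 0.228), and also with length offsets (0.0724) and a replicate block (0.0759). Smurf1, the other ligase, went the other way without passing the test, with 68.9 and 68.6 CPM in Jmjd3 KO and 61.0 and 60.0 CPM in Utx KO (0.18 ± 0.06, adjusted p = 0.0982). Ski, Skil and Smurf1 lay between -0.11 and 0.13 in each knockout against Tdt Control.

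The authors' deposited tables, which compare each knockout with the control, called more members than edgeR did. At an adjusted p under 0.05 the authors' deposited table for Jmjd3 KO held 5 members, Id1, Id2, Smurf2, Tgfb3 and Tgfbr3. It called 6.10% of its 14359 genes with an adjusted p. The authors' deposited table for Utx KO held 6 members, Id1, Bmp1, Bmp4, Smad3, Tgfb3 and Tgfbr3. It called 4.21% of its 14941 genes with an adjusted p. In the authors' deposited tables Id1 had log2 fold changes of -0.41 in Jmjd3 KO (adjusted p = 6.8e-09) and -0.44 in Utx KO (adjusted p = 5.78e-10). Bmp4 had 0.04 there in Jmjd3 KO (adjusted p = 0.823) and 0.41 in Utx KO (adjusted p = 0.00119). Some deposited values were far smaller than those from edgeR, with 0.04 against 0.32 for Acvr2b in Utx KO and 0.07 against 0.49 for Inhba in Jmjd3 KO. How the deposited fold changes were computed is not given, so their sizes cannot be compared directly with those from edgeR. DESeq2 on the summed reads called 6 members in each knockout, with 7.50% and 5.07% of all genes, and 4 between the knockouts (Bmp1, Bmpr1a, Ski and Smurf2), with 13.0%.

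Around these members stood 74 further genes of the pathway, of which 70 could be tested. In Jmjd3 KO against Tdt Control 2 rose and 1 fell (4.29% of those tested, median log2 fold change 0.08). In Utx KO against Tdt Control 2 rose and 1 fell (4.29%, median 0.03), and in Jmjd3 KO against Utx KO 10 were higher and 5 lower (21.4%, median 0.05). These shares stand beside 3.0%, 1.72% and 8.02% of all genes tested. The calls were among ligands, extracellular proteins, receptors and target genes, and none of the 17 intracellular genes passed in the 3 comparisons, where 2, 1 and 1 of them had an unadjusted p under 0.05.

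In Jmjd3 KO 1 target gene fell, and 1 extracellular gene and 1 ligand gene rose. Tnc, the gene of tenascin-C in the matrix, had 1465 and 1540 CPM in Jmjd3 KO, 2088 and 2157 CPM in Utx KO, and 2473 and 2320 CPM in Tdt Control. It fell by 0.67 ± 0.04 in Jmjd3 KO against Tdt Control (adjusted p = 5.82e-04) and was 0.50 ± 0.04 lower in Jmjd3 KO than in Utx KO (log2 fold change -0.50, adjusted p = 0.00127). Both Tnc calls held in each of the 13 alternatives. Thbs1, a thrombospondin that can activate latent TGF-beta, rose by 0.30 ± 0.06, to 733 and 680 CPM in Jmjd3 KO, against 580 and 566 CPM in Tdt Control (adjusted p = 0.0335). Gdf15, a stress-induced ligand of the superfamily, rose by 1.29 ± 0.24, to 2.96 and 4.06 CPM in Jmjd3 KO, against 1.5 and 1.37 CPM in Tdt Control (adjusted p = 0.0366). Thbs1 and Gdf15 lost the call without either Jmjd3 KO replicate (adjusted p from 0.0718 to 0.196). Both also lost it without Tdt Control replicate 2 (0.126 and 0.135) and without Tdt Control replicate 1 (0.105 and 0.122).

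In Utx KO the called genes encode a BMP-binding protein, a BMP ligand and a type I receptor. Bmper, a secreted BMP-binding protein, rose by 0.54 ± 0.06, to 17.7 and 17.3 CPM in Utx KO, against 12.1 and 11.9 CPM in Tdt Control (adjusted p = 0.0151). The ligand gene Bmp6 rose by 0.62 ± 0.09, to 25.8 and 25.5 CPM in Utx KO, against 15.0 and 18.4 CPM in Tdt Control (adjusted p = 0.0263). Acvrl1, which encodes the type I receptor ALK1 known from endothelial cells, fell by 0.48 ± 0.09, to 5.45 and 5.68 CPM in Utx KO, against 7.75 and 7.73 CPM in Tdt Control (adjusted p = 0.0445). The groups did not overlap for any of these 3 genes, and for Bmp6 the Tdt Control libraries lay further apart than those of Utx KO. The 8 endothelial markers summed to 53.8 and 45.6 CPM in Utx KO and 61.6 and 68.4 CPM in Tdt Control, none of them called, and their part in the Acvrl1 difference was not tested. Acvrl1 lost the call when any 1 library was left out (adjusted p between 0.0948 and 0.220) and with length offsets (-0.29, adjusted p = 0.351). Bmper lost it without any 1 of the 4 Utx KO and Tdt Control libraries (0.0512 to 0.106), and Bmp6 without any 1 library other than Tdt Control replicate 2 (0.0597 to 0.152).

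Of the genes called between the knockouts, the 5 given next had the libraries of the knockouts on opposite sides of both control libraries. None of the 5 passed the test against Tdt Control in either knockout (adjusted p from 0.05005 to 0.324). Gdf6, a BMP-type ligand gene, had 1.40 and 1.47 CPM in Jmjd3 KO, 3.83 and 3.57 CPM in Utx KO, and 2.30 and 2.10 CPM in Tdt Control (Jmjd3 KO over Utx KO -1.36 ± 0.15, adjusted p = 0.00318). Ltbp2, a matrix protein related to the latent TGF-beta binding proteins, had 56.5 and 49.4 CPM in Jmjd3 KO, 84.5 and 97.2 CPM in Utx KO, and 68.7 and 63.4 CPM in Tdt Control (-0.78 ± 0.09, adjusted p = 0.00436). Both were lower in Jmjd3 KO than in Utx KO. Tgfbi, a matrix protein named for its induction by TGF-beta, had 39.5 and 36.0 CPM in Jmjd3 KO, 22.4 and 23.3 CPM in Utx KO, and 28.0 and 32.4 CPM in Tdt Control (0.73 ± 0.08, adjusted p = 0.00345). Nrros, which holds latent TGF-beta on myeloid cells, had 4.37 and 4.61 CPM in Jmjd3 KO, 2.36 and 2.77 CPM in Utx KO, and 3.17 and 3.14 CPM in Tdt Control (0.81 ± 0.13, adjusted p = 0.0130). Cdkn1a, the cell-cycle inhibitor p21, had 202 and 202 CPM in Jmjd3 KO, 164 and 159 CPM in Utx KO, and 188 and 182 CPM in Tdt Control (0.32 ± 0.05, adjusted p = 0.0104). These 3 were higher in Jmjd3 KO than in Utx KO. The 8 macrophage markers summed to 67.8 and 79.1 CPM in Jmjd3 KO and 49.3 and 56.6 CPM in Utx KO, with 3 of them called higher in Jmjd3 KO, and their part in the Nrros difference was not tested. Nrros lost the call without either Jmjd3 KO replicate or Utx KO replicate 1 (adjusted p from 0.0642 to 0.0822), and Cdkn1a without any 1 of the 4 knockout libraries (0.0556 to 0.0691). Besides Tnc, 3 of the further pathway genes described above also passed between the knockouts, namely Gdf15 (1.49 ± 0.25, adjusted p = 0.0149), Thbs1 (0.27 ± 0.06, adjusted p = 0.026) and Bmper (-0.38 ± 0.06, adjusted p = 0.0136). Thbs1 and Bmper lost this call without either Jmjd3 KO replicate or Utx KO replicate 1 (adjusted p from 0.0584 to 0.145), and Gdf15 without Jmjd3 KO replicate 2 (0.0901) or Utx KO replicate 1 (0.0809). The remaining 6 called genes were Dcn, Fbn1, Eng, Fn1 and Col1a1, higher in Jmjd3 KO, and Ccn2, lower. Dcn, Eng and Col1a1 also had the libraries of the knockouts on opposite sides of both control libraries. How often this order is seen over all genes was not counted.

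**Figure D4:**
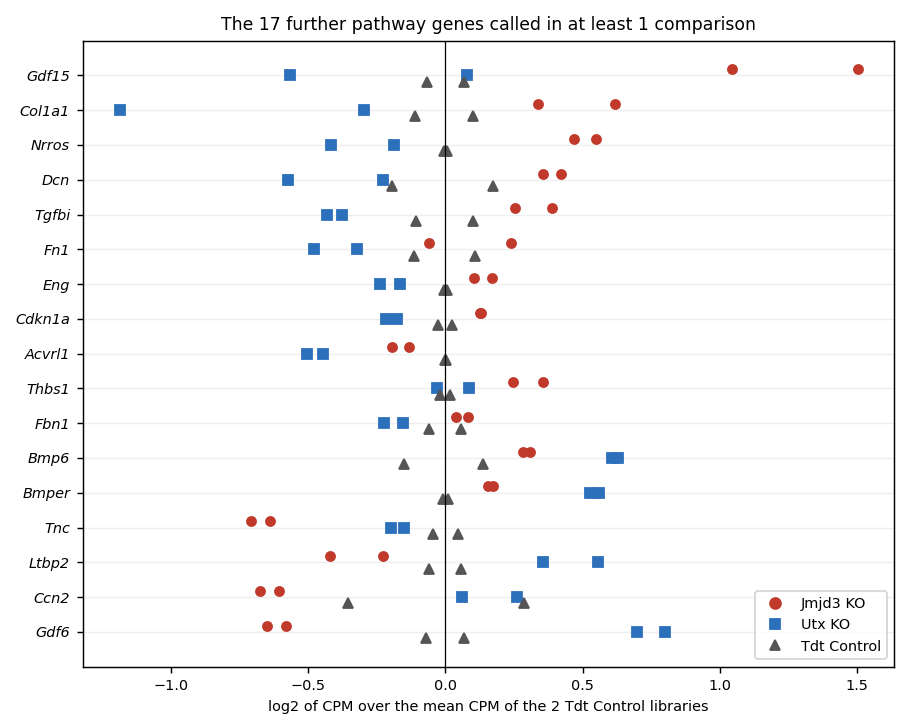
The 17 further pathway genes called in at least 1 comparison, as log2 of each library's CPM over the mean CPM of the 2 Tdt Control libraries, with circles for Jmjd3 KO, squares for Utx KO and triangles for Tdt Control. Gdf6 has Jmjd3 KO at -0.65 and -0.58 and Utx KO at 0.80 and 0.70, and Col1a1 shows a wide gap between the Utx KO replicates, at -1.19 and -0.30.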

How the data were processed

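RNA was sequenced from 6 libraries of sorted satellite cells. The submitters' processing notes list the tools cutadapt 2.6, Salmon 1.1.0 and DESeq2 1.28.1 with no role, and mm10 and GRCm38 as builds. Per the file headers, each deposited quantification holds estimated counts (reads per transcript), TPM and effective lengths. Reads that fit several transcripts are shared out by such estimates, so transcript shares are less certain than gene sums. Per the file headers, the authors' 2 tables of comparisons hold a base mean (a signal per gene, averaged over libraries), log2 fold changes and their errors, and p-values before and after adjustment. No source used here gives the annotation release.

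Estimated counts were summed per gene through GENCODE M21 (139864 of 140748 transcripts matched by stable ID) and rounded to whole numbers. All 6 libraries entered 1 fit of edgeR 4.0.16 (limma 3.58.1, R 4.3.3) with TMM normalization, edgeR's filter for low counts and genotype as the only term, which left 17084 genes, 3 residual degrees of freedom and a biological coefficient of variation of 0.0844. The quasi-likelihood test was used, p-values were adjusted over all genes tested, and the script was tested on simulated data. Log2 fold changes are given with SE. Library totals of 53750675 to 77675388 reads leave 2 libraries per group as the limit of precision.

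Members and lists were chosen with earlier results of these data known. From the list of further pathway genes 1 gene is not reported here and was left out of its counts after its values had been seen. Members called in a comparison, or with non-overlapping groups and a log2 fold change of at least 0.3 in size, are described by library, and up to 6 called genes per comparison are named from the other pathway genes. The alternatives were DESeq2 1.42.0, RLE normalization, every gene with at least 1 read, only genes at 5 CPM or more in 2 libraries, offsets for transcript length, a replicate block, only the 4 libraries compared, and each library left out in turn.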

Additional observations from a re-analysis of the deposited data

Results flagged for a closer look

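The effects of the 2 knockouts differed in the direct test of Jmjd3 KO against Utx KO for 2 members and 9 of the further pathway genes described with values. The members called were 6.45% of the members, a smaller share than the 8.02% of all genes tested. All further pathway genes called in this test were 21.4% of those tested. On the log2 scale the difference was 0.54 for Bmp1 and -0.29 for Smurf2. For the further genes it was -0.50 for Tnc, -1.36 for Gdf6, 0.73 for Tgfbi, -0.78 for Ltbp2, 0.32 for Cdkn1a, 0.81 for Nrros, 1.49 for Gdf15, 0.27 for Thbs1 and -0.38 for Bmper. Groups of 2 libraries are too small for a search for outlying libraries. Bmp1, Smurf2, Cdkn1a, Nrros, Gdf15, Thbs1 and Bmper depend on single libraries, as given with their values above. Tnc, Tgfbi and Ltbp2 passed the test in every alternative run. Gdf6 passed in each of the 12 alternatives that tested it, and the filter of 5 CPM left it out.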

How the results depend on the processing

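Of 806 values for 63 single-gene results under alternatives, 675 kept their direction and side of the threshold, 89 lost the call, 30 gained it and 12 turned round. Id1 was called in both knockouts under every alternative that kept the 6 libraries or the 4 compared. Turned round were Tgfb3 between the knockouts (0.00162 with the filter of 5 CPM), Kdm6a in Jmjd3 KO (0.11 with length offsets) and, with a library left out, values that had no call: in Jmjd3 KO Acvr2b (-0.0611 to 0.137) and Fst (-0.421 to 0.0439), in Utx KO Bmp2 (-0.112 to 0.197), Inhba (-0.228 to 0.0739) and Smurf2 (-0.0461 to 0.143), and between the knockouts Tgfb3 (-0.07 to 0.0446) and Tgfbr3 (-0.0538 to 0.105). The causes were not tested. Calls beside those above were lost with length offsets for Gdf15 (adjusted p = 0.0582) and Bmp6 (0.0517), and with 4 libraries for Tgfb3 in Jmjd3 KO (0.0620) and, in Utx KO, Bmp4 (0.0713), Smad3 (0.0987), Bmp6 (0.0546) and Acvrl1 (0.0992).

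Counts are given in the order Jmjd3 KO, Utx KO, Jmjd3 KO against Utx KO. The 2, 3 and 2 members called became 6, 6 and 4 with DESeq2, 9, 6 and 7 with no filter, 4, 3 and 2 with 5 CPM, 1, 1 and 1 with length offsets, and 1, 1 and 3 with 4 libraries. The 3, 3 and 15 further pathway genes became 7, 9 and 18 with DESeq2, 15, 16 and 19 with no filter, 2, 1 and 12 with length offsets, and 3, 1 and 17 with 4 libraries. The 513, 293 and 1370 genes called in all became 1083, 698 and 1875 with DESeq2, 1872, 1399 and 2856 with no filter, 331, 131 and 792 with length offsets, and 481, 119 and 1494 with 4 libraries. Leaving out a library gave 0 to 1, 0 to 1 and 0 to 3 members, 1 to 3, 0 to 1 and 4 to 16 further genes, and 113 to 434, 16 to 96 and 291 to 1387 of all genes. A lone library in a group is then assumed to vary like the others.

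Replicate numbers did not pair the samples (correlations of deviations across genes of -0.0107 for Jmjd3 KO and Tdt Control, -0.0532 for Utx KO and Tdt Control, and -0.00813 for the knockouts). A replicate block gave 1, 1 and 1 members, 2, 2 and 12 further genes, and 322, 133 and 948 of all genes. With the block the calls of Tgfb3 (adjusted p = 0.0814) and Thbs1 (0.0772) in Jmjd3 KO, of Thbs1 between the knockouts (0.0599), and of Bmp4 (0.0719), Smad3 (0.101) and Acvrl1 (0.0959) in Utx KO, were lost. RLE normalization moved the median of all genes by at most 0.0025 in size.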
